A study of Rattus norvegicus with 4 samples.

Results

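Acute phase proteins are plasma proteins that hepatocytes make in larger amounts during infection or injury. Interleukin 6, interleukin 1 and glucocorticoids drive their genes through the factors STAT3, C/EBP and NF-kappa B, and in the rat alpha-2-macroglobulin, alpha-1-acid glycoprotein and haptoglobin are classical members. 10 genes, *Crp*, *Hp*, *Orm1*, *Lcn2*, *A2m*, *Saa4*, *Apcs*, *Itih4*, *Lbp* and *Cp*, were chosen by symbol as acute phase genes from the 16999 genes analysed. All 10 were listed in each of the 4 libraries. They differ in how far they are induced, and *Saa4* encodes a constitutive form. Abundance is given as TPM, a transcript abundance corrected for gene length and for the total of the library.

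The libraries came from livers of wild type rats that had inhaled sevoflurane at 4.5% or desflurane at 6%, a pair of halogenated agents for general anesthesia. For each agent, 1 rat was decapitated once unconscious (the control, 0 h) and 1 rat after 6 h of inhalation, so all animals, controls included, had inhaled an agent. The sources used here do not give strain, sex or age. Each of the 4 groups is a single library from a single animal, without any replicate error, and p-values within an agent could not be had. Control and anesthetized rats were killed 6 h apart, and the duration of anesthesia and the hour of harvest therefore cannot be told apart. The aligned bases implied by the tables lay between 3.50 and 5.57 Gb per library, with the lowest depth in sevoflurane 0 h, where a transcript at a TPM of 2 was covered 4.72 times on average, against 6.84 to 7.28 times in the other libraries. The hepatocyte markers were abundant in each library, with albumin (*Alb*) at a TPM of 57453 in sevoflurane 0 h, 55977 in sevoflurane 6 h, 58867 in desflurane 0 h and 53282 in desflurane 6 h.

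A gene was called higher or lower in a comparison when the larger TPM was above 2 and exceeded the smaller by a ratio above 2. None of the 10 acute phase genes was called in the sevoflurane 6 h liver against its control, and none in the desflurane 6 h liver against its control, where 8.75% of 8270 genes (5.04% higher, 3.71% lower) and 9.65% of 8372 genes (4.1% higher, 5.55% lower) were called. 8 of the 10 genes were above the minimum and could be called, and *A2m* and *Lcn2* could not. Differences on the log2(TPM + 1) scale ran from -0.60 for *Orm1* to 0.60 for *Crp* with sevoflurane, and from -0.26 for *Hp* to 0.76 for *A2m* with desflurane. The median difference over all 10 genes was -0.02 with sevoflurane and 0.07 with desflurane, beside 0.05 and -0.10 over the 8024 genes whose mean TPM reached 2. Over the 8 members that reached this mean, the medians were -0.07 and 0.03. Without the minimum TPM, *A2m* passed the ratio of 2 upward with sevoflurane, where 12.8% of 13061 genes did, and *A2m* and *Lcn2* with desflurane, where 11.5% of 13290 did. With sevoflurane 4 members had a positive difference, 5 a negative one and *Lcn2* none, where 4501 of the 8024 genes were positive and 3523 negative. With desflurane 7 were positive, *A2m* and *Lcn2* among them, and 3 negative, where 3024 of the 8024 genes were positive and 5000 negative. At a lower ratio of 1.5, *Crp* passed upward (1 member) and *Orm1* downward (1 member) with sevoflurane, where 13.9% and 9.36% of genes did and 23.3% in either direction. *Lbp* alone passed upward with desflurane, where 9.07% of genes passed upward, 15.1% downward and 24.2% in either direction. The 10 genes together took 1.92% of the TPM of all analysed genes in sevoflurane 0 h, 1.83% in sevoflurane 6 h, 1.87% in desflurane 0 h and 1.73% in desflurane 6 h.

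**Figure D1:**
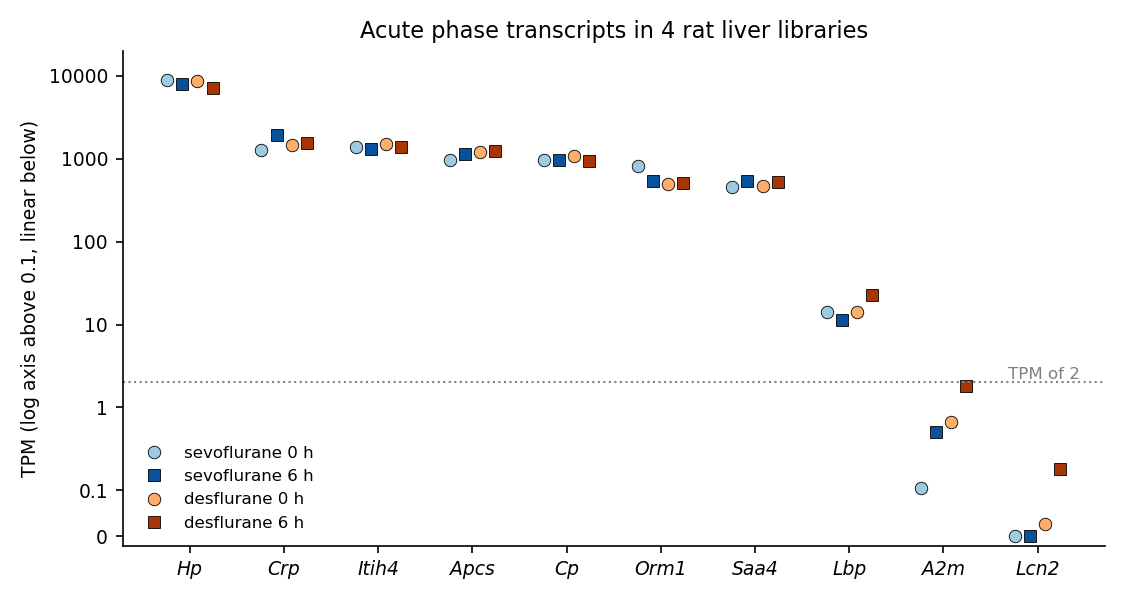
TPM (vertical axis, logarithmic above 0.1 and linear below) of the 10 acute phase genes, ordered by mean, with 1 point for each of the 4 libraries (circles, 0 h; squares, 6 h). *Hp* stands highest at 7157 to 8805, 6 further genes lie between 461 and 1920.4, and only *Lbp*, *A2m* and *Lcn2* lie below 100, the last 2 under the TPM of 2 marked by the dotted line.

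The levels of the 10 genes covered a wide range. *Hp* was the most abundant, followed by *Crp* and *Itih4*, then *Apcs* and *Cp*, then *Orm1* and *Saa4*, and far below them *Lbp*, *A2m* and *Lcn2*. Neighbors in this order whose ranges over the 4 libraries overlapped were *Crp* and *Itih4*, *Apcs* and *Cp*, *Orm1* and *Saa4*, and *A2m* and *Lcn2*. The lowest value of *Hp* (7157) exceeded the highest of *Crp* (1920.4), and the lowest of *Saa4* (461) exceeded the highest of *Lbp* (22.6). *Hp* ranked between 14 and 15 among all genes in each library, whereas *Lcn2* ranked at 11118 or lower.

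Sequence upstream of the transcription start was available for 6 of the 10 genes in the RefSeq promoter table of the assembly GRCr8. 4 of them are shown, namely an abundant pentraxin gene, the gene with the largest difference between controls, the only one with a STAT match, and the gene whose RNA was at or near 0. Each run holds the 250 bases before the start, written 5′ to 3′ on the strand of the gene, and capitals mark matches to TTNNGNAA (C/EBP) and TTCNNNGAA (STAT) on either strand and to TATAAA on the strand shown.

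Crp, chr13:87693812-87694061, plus strand: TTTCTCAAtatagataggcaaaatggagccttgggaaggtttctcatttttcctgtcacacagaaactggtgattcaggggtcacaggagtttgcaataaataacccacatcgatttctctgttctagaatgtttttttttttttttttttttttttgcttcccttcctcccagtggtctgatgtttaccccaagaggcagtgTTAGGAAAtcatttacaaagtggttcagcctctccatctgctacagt

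Orm1, chr5:81788259-81788508, plus strand: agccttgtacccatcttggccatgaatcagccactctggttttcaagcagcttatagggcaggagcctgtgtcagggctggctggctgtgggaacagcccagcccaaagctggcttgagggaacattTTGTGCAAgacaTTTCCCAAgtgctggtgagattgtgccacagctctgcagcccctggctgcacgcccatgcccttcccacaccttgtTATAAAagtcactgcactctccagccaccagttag

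Itih4, chr16:6086735-6086984, plus strand: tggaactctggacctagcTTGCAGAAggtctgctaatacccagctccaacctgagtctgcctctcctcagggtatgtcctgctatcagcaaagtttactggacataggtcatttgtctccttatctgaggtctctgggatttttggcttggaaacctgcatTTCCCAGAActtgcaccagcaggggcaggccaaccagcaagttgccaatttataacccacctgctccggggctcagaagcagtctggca

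Lcn2, chr3:36081781-36082030, minus strand: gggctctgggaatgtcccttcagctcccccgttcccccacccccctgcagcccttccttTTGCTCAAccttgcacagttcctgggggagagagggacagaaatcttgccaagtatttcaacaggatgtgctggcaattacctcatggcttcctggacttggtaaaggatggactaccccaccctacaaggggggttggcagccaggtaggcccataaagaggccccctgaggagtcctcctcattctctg

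A C/EBP match was found in 5 of the 6 promoters, all except that of *Apcs*, and in 37.2% of all 33469 promoters of the same length. The STAT match occurred in *Itih4* only, from 89 to 81 bases before the start, and in 7.67% of all promoters. TATAAA was found in *Orm1* and *Cp*, from 35 to 30 and from 27 to 22 bases before the start, and in 8.06% of all promoters. The palindromic glucocorticoid receptor consensus was found in *Orm1* only, from 130 to 118 bases before the start, where it overlapped the C/EBP match from 123 to 116, and in 0.373% of all promoters. The NF-kappa B consensus was found in *Lcn2* only, from 242 to 233 bases before the start, and in 6.33% of all promoters. The HNF1 consensus was found in none of the 6 and in 0.0896% of all promoters. These matches describe letters in a window, and binding was not measured here.

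*Crp* and *Apcs* encode the short pentraxins, C-reactive protein and serum amyloid P component, which bind microbial surfaces and cell debris. *Crp*, on chromosome 13 from 91080448 to 91081358 (rn6), had a TPM of 1264 in sevoflurane 0 h, 1920.4 in sevoflurane 6 h, 1448 in desflurane 0 h and 1553 in desflurane 6 h. Both 6 h libraries were above both controls, with a ratio of 1.52 with sevoflurane and 1.07 with desflurane, and the larger of these differences, 0.60 on the log2 scale, became 0.41 against the desflurane control. *Apcs*, also on chromosome 13 from 91426621 to 91427417, stood at 974, 1144, 1208 and 1245 in the same order. Its lowest value was that of the sevoflurane control, and the sevoflurane 6 h value lay below the desflurane control, so the 6 h and 0 h libraries overlapped.

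The next genes encode carriers of hemoglobin, metals and small ligands. *Hp*, for haptoglobin, which captures free hemoglobin, on chromosome 19 from 42096255 to 42100805, had a TPM of 8805 in sevoflurane 0 h, 7913 in sevoflurane 6 h, 8561 in desflurane 0 h and 7157 in desflurane 6 h. Both 6 h values were below both controls, at changes in TPM of -10.1% with sevoflurane and -16.4% with desflurane, or -0.15 and -0.26 on the log2 scale. The red blood cell genes ran the other way, with a summed TPM over 7 listed genes of 632, 1671, 991 and 1864 in the same order of libraries, and their part in the values of *Hp* was not tested. *Hba1* lies within the span of *Hba-a2* and had nearly the same TPM in each library, so this sum may count the same reads more than once. In these bulk samples, fewer cells of a type and less RNA per cell cannot be told apart. *Cp*, for ceruloplasmin, the copper-carrying ferroxidase of plasma, on chromosome 2 from 104744443 to 104802924, had 974, 953, 1071 and 945. Its 6 h libraries also lay below both controls, by differences of -0.03 and -0.18, and it had the narrowest range of the 10 genes, with a ratio of 1.13 between the highest and lowest library. *Hps3* lies on the opposite strand across its end at a TPM of 4.69 to 5.27.

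*Orm1*, for alpha-1-acid glycoprotein, a lipocalin that carries drugs and steroids, on chromosome 5 from 79179668 to 79182820, had a TPM of 818 in sevoflurane 0 h, 539 in sevoflurane 6 h, 497 in desflurane 0 h and 506 in desflurane 6 h. Only the sevoflurane control stood apart from the other libraries. The difference with sevoflurane was -0.60, but against the desflurane control it was 0.12, and with desflurane it was 0.03, or -0.69 against the sevoflurane control. The controls differed by -0.72 in this gene (desflurane minus sevoflurane), a ratio of 1.65, which was more than either agent's own difference.

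*Lcn2*, for lipocalin 2, which withholds iron-laden siderophores from bacteria, lies on chromosome 3 from 11414189 to 11417534. It was listed at 0 in both sevoflurane libraries, at a TPM of 0.027 in desflurane 0 h and at 0.18 in desflurane 6 h. All 4 values were far below the TPM of 2, and the highest corresponded to a mean coverage of 0.66, so no fold is given. The neutrophil markers, another source of this transcript, had a summed TPM over 14 genes of 2.77 in sevoflurane 0 h, 5.11 in sevoflurane 6 h, 4.05 in desflurane 0 h and 2.27 in desflurane 6 h, and *Mpo*, *Elane* and *Ltf* were listed at 0 in every library.

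*Saa4* encodes the constitutive serum amyloid A of high-density lipoprotein. On chromosome 1 from 102776080 to 102780381, it had a TPM of 461 in sevoflurane 0 h, 536 in sevoflurane 6 h, 472 in desflurane 0 h and 528 in desflurane 6 h. Both 6 h libraries were above both controls, by similar differences of 0.22 and 0.16. Rows for the inducible *Saa1*, *Saa2* and *Saa3* were not among those analysed here.

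*Lbp* encodes lipopolysaccharide-binding protein, which hands bacterial lipopolysaccharide to CD14. On chromosome 3 from 154786232 to 154812910, it had a TPM of 14.0 in sevoflurane 0 h, 11.3 in sevoflurane 6 h, 14.3 in desflurane 0 h and 22.6 in desflurane 6 h. The controls were alike, and the 6 h libraries lay on either side of them, at differences of -0.29 with sevoflurane and 0.63 with desflurane. *Cd14*, its partner, had 19.3, 13.4, 17.5 and 25.2 in the same order, also lowest in sevoflurane 6 h and highest in desflurane 6 h. The sum over markers of Kupffer cells and macrophages had the same order at its ends, though single markers did not all follow it. Their summed TPM over 8 genes was 387 in sevoflurane 0 h, 318 in sevoflurane 6 h, 346 in desflurane 0 h and 417 in desflurane 6 h. With sevoflurane 7 of 8 were lower, where 3523 of the 8024 genes were, and with desflurane 8 of 8 were higher, where 3024 were. None was called. The desflurane control was itself lower than the sevoflurane control in 7 of 8, with a median difference of -0.19. Their part in the values of *Lbp* and *Cd14* was not tested.

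The remaining members are large inhibitors and their relatives. *Itih4*, an inter-alpha-trypsin inhibitor heavy chain, on chromosome 16 from 6970367 to 6985538, had a TPM of 1383 in sevoflurane 0 h, 1292 in sevoflurane 6 h, 1512 in desflurane 0 h and 1391 in desflurane 6 h. Each 6 h liver was slightly below its own control, by differences of -0.10 and -0.12, while the desflurane 6 h value was above the sevoflurane control. *A2m*, for alpha-2-macroglobulin, the broad proteinase trap that is a strongly induced acute phase protein of the rat, had a TPM of 0.11 in sevoflurane 0 h, 0.50 in sevoflurane 6 h, 0.67 in desflurane 0 h and 1.82 in desflurane 6 h. The 6 h value was above its own control with each agent, by 0.44 and 0.76 on the log2(TPM + 1) scale, but sevoflurane 6 h was below the desflurane control, and none of the 4 values reached a TPM of 2. Mean coverage of *A2m* was 0.25, 1.72, 2.30 and 6.62 in the same order. Its row spans 163613 bp on chromosome 4 from 154309426 to 154473038, in one assembled locus with *LOC297568* and the related genes *Mug2* and *Mug1*. *Mug2* and *Mug1* had TPM values of 138 to 186 and of 827 to 1120.0. All named genes of the locus, *LOC297568* included, summed to 1935, 2775, 3127 and 3300 in the same order of libraries. How reads shared between the genes of this locus were divided is not stated, so the low values of *A2m* are uncertain.

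**Figure D2:**
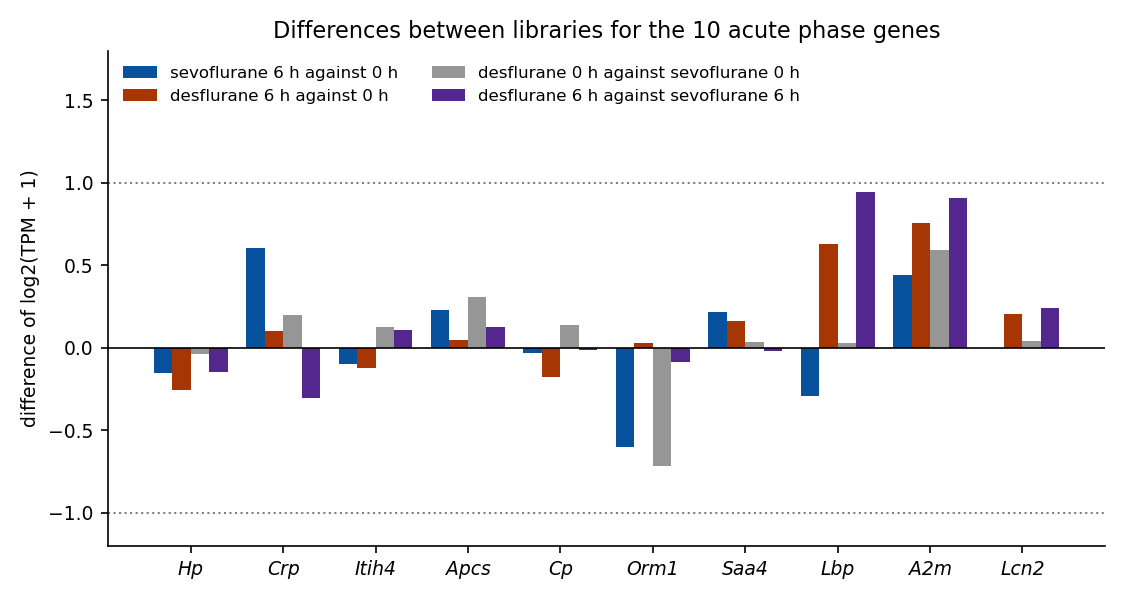
Differences of log2(TPM + 1) (vertical axis) of the 10 acute phase genes in 4 comparisons of single libraries, as bars from 0, first library minus second. Dotted lines mark a difference of 1, which no bar passes. The longest downward bar is the difference between controls for *Orm1* (-0.72), and the longest upward bar is desflurane 6 h against sevoflurane 6 h for *Lbp* (0.94).

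The livers were then compared at a matched time. Between the controls none of the 10 genes was called, where 2.76% of 8263 genes were (1.96% higher, 0.799% lower), and the median difference of desflurane from sevoflurane was 0.08, beside 0.12 over the 8024 genes. Between the 6 h livers *Lbp* was called higher with desflurane, at 22.6 against 11.3, where 3.99% of 8229 genes were called, 2.21% higher and 1.77% lower. Its ratio of 2.01 was just past the limit. At a ratio of 1.5, *Orm1* passed downward between controls, where 7.82% of genes passed upward, 2.74% downward and 10.6% in either direction, and *Lbp* alone passed between the 6 h livers, where 6.65% passed upward, 7.68% downward and 14.3% in either direction. Without the minimum TPM, *A2m* and *Lcn2* also passed upward, between controls and between the 6 h livers, where 11.0% of 13078 and 10.7% of 13245 genes did. With the minimum the other 9 genes were not called, and the median over all 10 was 0.05, beside -0.03. All 8 Kupffer cell and macrophage markers were also higher in the desflurane 6 h liver than in the sevoflurane 6 h liver, with a median difference of 0.47. In this comparison of single animals, 3666 of the 8024 genes were higher.

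The 6 h libraries were also compared with the 0 h libraries in limma over the 8024 genes, blocking on the agent. This fit estimates the average of both agents' changes, called the common change here, and not whether both agents share it. The 8 members that entered had no adjusted p under 0.05, where 8.62% of genes did (4.69% higher, 3.94% lower at 6 h), and 1 of them, *Crp*, had an unadjusted p under 0.05. The fit for *Crp* gave 0.35 ± 0.13 (SE) with an adjusted p of 0.14 in limma. *Hp* was at -0.21 ± 0.11 with an adjusted p of 0.32, and *Orm1* at -0.29 ± 0.14 with an adjusted p of 0.30, both by limma. The adjusted p of the other 5 lay between 0.41 for *Saa4* and 0.77 for *Lbp* in the same limma fit. This fit has 1 residual degree of freedom and takes most of its error from the other genes. Both 6 h libraries lay apart from both controls for 4 of the 10 members, *Crp* and *Saa4* above and *Hp* and *Cp* below, where the same held for 51.0% of the 8024 genes, 23.0% above and 28.0% below.

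Of 45 other positive acute phase genes, 38 had a value. Sevoflurane gave 6 higher and 1 lower call among them, desflurane 6 higher and 2 lower, and the median differences over the 38 genes were -0.02 and -0.01. Of these genes 34 and 35 were above the minimum, and over all genes above it 5.04% were called higher and 3.71% lower with sevoflurane, and 4.1% and 5.55% with desflurane. The genes called higher with both agents were *Il1rn*, *Nnmt*, *Timp1*, *Mt1* and *Mt2A*, which encode an interleukin 1 receptor antagonist, a nicotinamide methyltransferase, an inhibitor of metalloproteinases and a pair of metal-binding proteins rather than the main plasma proteins of the response. *Nnmt* rose from 25.7 TPM to 75.4 under sevoflurane and from 22.8 to 73.4 under desflurane. *Il1rn* rose from 1.15 to 4.06 and from 2.93 to 7.14, and *Timp1* from 1.46 to 3.40 and from 1.92 to 4.40, but against the desflurane control their sevoflurane changes were 0.36 and 0.59 and were not called. *Mt1* went from 13.2 to 424 and from 140.4 to 650, and *Mt2A* from 6.98 to 580.2 and from 123 to 948, with controls that differed strongly. *S100a8*, of neutrophils, reached 2.19 from 0.74 with sevoflurane. *Mbl2*, a mannose-binding lectin, fell from 318 to 130.0 under sevoflurane and had 175 and 128 under desflurane. Its sevoflurane change was -1.28 but -0.42 against the desflurane control. *Hamp*, for the iron hormone hepcidin, fell from 113 to 41.9 under desflurane and had 52.5 and 51.1 under sevoflurane, and against the sevoflurane control its change with desflurane was -0.32. *S100a9* was called lower with desflurane, at 2.15 and 0.50, but not against the sevoflurane control.

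Fibrinogen, the clotting protein whose chains are abundant acute phase products, was examined through *Fga*, and *Fgb* and *Fgg* were added after their values were seen. *Fga* had a TPM of 3955 in sevoflurane 0 h, 3173 in sevoflurane 6 h, 3901 in desflurane 0 h and 3176 in desflurane 6 h. *Fgb* had 5368, 4659, 5331 and 4293 and *Fgg* 4103, 3126, 4131 and 3137 in the same order. For each chain both 6 h libraries lay below both controls, where the same held for 28.0% of the 8024 genes. None of the chains was called by the ratio. In limma the common change was -0.31 ± 0.11 (SE) for *Fga* with an adjusted p of 0.11, -0.26 ± 0.11 for *Fgb* with an adjusted p of 0.20, and -0.39 ± 0.11 for *Fgg* with an adjusted p of 0.037. Only *Fgg*, which was added after its values were seen, was under 0.05, and in limma under 5 other settings with all 4 libraries its adjusted p ranged from 0.045 to 0.30 and was under 0.05 in 1 of them.

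The synthesis of negative acute phase proteins declines during inflammation. Their list had 22 genes, 20 of them with a value, and it also held genes of no plasma protein, such as *Ppara* and *Paqr7*. Of the genes called in it with either agent, only *Serpina7* encodes a plasma protein. Sevoflurane gave 1 higher and 2 lower calls, and desflurane 1 of each, where 8.75% and 9.65% of all genes above the minimum were called. The median difference was 0.24 with sevoflurane, with 15 of 20 genes positive, and -0.01 with desflurane, with 8 of 20 positive. Over the 8024 genes the medians were 0.05 and -0.10, and 4501 and 3024 genes were positive. *Ttr*, for transthyretin, the carrier of thyroxine and retinol-binding protein, had a TPM of 11879 in sevoflurane 0 h, 12606 in sevoflurane 6 h, 13407 in desflurane 0 h and 11545 in desflurane 6 h. *Alb* was lower in each 6 h library than in its own control at differences of -0.04 and -0.14, and neither gene was called. *Ppara*, a nuclear receptor of the fasting liver and no plasma protein, rose from 9.70 to 32.1 and from 12.7 to 43.6. *Serpina7*, for thyroxine-binding globulin, fell from 6.20 to 1.54 and from 11.3 to 5.24, though the latter became -0.21 against the sevoflurane control. *Paqr7*, a membrane progestin receptor, fell from 50.9 to 21.8 under sevoflurane and had 42.6 and 21.9 under desflurane, short of the ratio, and its sevoflurane change was also short of it against the desflurane control.

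**Figure D3:**
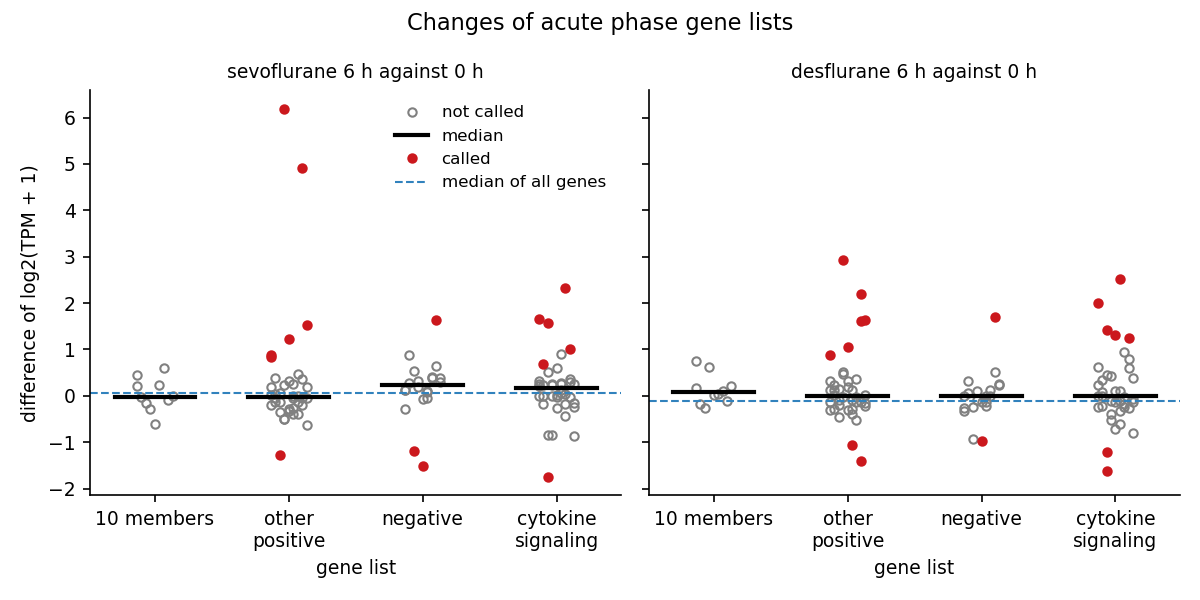
Differences of log2(TPM + 1) (vertical axis) between 6 h and 0 h for the 10 members and for 3 further lists, with sevoflurane on the left and desflurane on the right. Each point is a gene, red where it was called, black lines are medians over listed genes, and the dashed line is the median of the 8024 genes (0.05 and -0.10). No red point appears among the 10 members, and calls occur in each of the other lists.

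The cytokines, receptors and regulators that act on these genes formed a list of 38 genes, all with a row, and 30 were above the minimum with either agent. Sevoflurane gave 5 higher and 1 lower call, desflurane 5 higher and 2 lower, where 8.75% and 9.65% of all genes above the minimum were called. The median differences were 0.17 and -0.01, beside 0.05 and -0.10 over the 8024 genes. Of the cytokines, *Il6* was listed at 0 in every library, *Tnf* had a TPM between 0.09 and 0.28, and *Il1b* had 3.25 in sevoflurane 0 h, 2.53 in sevoflurane 6 h, 5.15 in desflurane 0 h and 2.76 in desflurane 6 h. None of these 3 was called.

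Among the receptors, *Il1r1*, the signaling receptor of interleukin 1, rose from 19.5 to 63.7 under sevoflurane and from 15.4 to 65.0 under desflurane. *Il6r*, the receptor that binds interleukin 6, rose from 7.14 to 39.9 with sevoflurane and had 19.9 and 39.5 with desflurane, which was short of the ratio against its own control. The 6 h libraries were nearly equal in *Il6r* and the controls were not. *Il6st*, the shared signal transducer gp130, had 43.9 and 63.4 at 0 h and 6 h of sevoflurane and 51.2 and 70.2 at 0 h and 6 h of desflurane, and was not called. In limma the common changes were 1.83 ± 0.17 (SE) for *Il1r1* with an adjusted p of 1.8e-05, and 1.64 ± 0.26 for *Il6r* with an adjusted p of 0.0016. In 5 other limma settings with all 4 libraries, the adjusted p was under 0.05 in 4 for each gene, and without a filter on the mean TPM it was 0.056 for *Il1r1* and 0.21 for *Il6r*. With a library left out, the agent block had to be dropped and 1 library stood alone at its time, assumed to vary like the others. In those fits the change of *Il6r* was 0.96 without sevoflurane 0 h and 2.32 without desflurane 0 h, so it depended on the control kept. It was 1.63 without sevoflurane 6 h and 1.65 without desflurane 6 h. The change of *Il1r1* lay between 1.67 and 1.99 in those fits.

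The factors and feedback inhibitors moved in both directions. *Nfkbia*, the inhibitor of NF-kappa B, rose from 16.3 TPM to 50.8 under sevoflurane and from 27.9 to 76.6 under desflurane, and *Nfkbiz*, a nuclear cofactor of NF-kappa B, from 3.08 to 7.24 and from 2.77 to 7.92. Against the desflurane control the sevoflurane change of *Nfkbia* was 0.84 and was not called. *Cebpb*, a C/EBP factor of the acute phase, had 42.3 and 79.3 with sevoflurane, short of the ratio, and rose from 28.4 to 168 with desflurane. Both 6 h values lay above both controls, and desflurane 6 h was called higher than sevoflurane 6 h, at a ratio of 2.11. For *Cebpb* limma gave a common change of 1.71 ± 0.28 (SE) with an adjusted p of 0.0017. In limma under 5 other settings with all 4 libraries it ranged from 0.0047 to 0.24 and was under 0.05 in 4. *Cebpd* was called with sevoflurane at 1.23 and 2.59, but against the desflurane control the change turned to -0.10, and it had 2.84 and 3.85 with desflurane. *Stat3*, which carries the interleukin 6 signal, had 17.7 at 0 h and 21.4 at 6 h of sevoflurane and 21.6 and 29.2 with desflurane, and *Socs3*, its feedback inhibitor, had 5.02 and 6.37 and then 5.32 and 9.99. Neither was called. *Socs2*, which restrains growth hormone signaling, fell from 44.5 to 12.5 and from 29.8 to 8.98. *Nr3c1*, the glucocorticoid receptor, had 52.2 and 28.5 with sevoflurane and 36.4 and 24.9 with desflurane, where neither passed the ratio and limma gave a common change of -0.69 ± 0.16 (SE) with an adjusted p of 0.019, under 0.05 in 1 of 5 other settings with all 4 libraries. *Junb* and *Foxa2* were called with desflurane, the first higher from 6.65 to 17.9 and the second lower, at 2.48 in desflurane 6 h, below its control by a ratio of 2.83. Against the sevoflurane control the change of *Junb* was 0.75 and was not called.

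**Figure D4:**
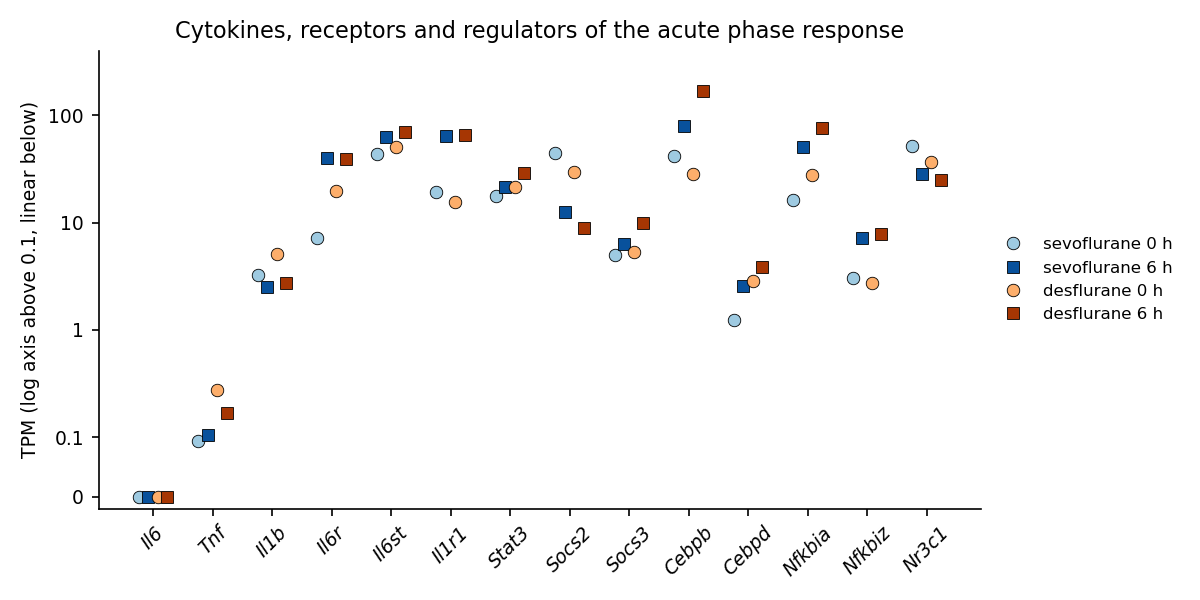
TPM (vertical axis, logarithmic above 0.1 and linear below) of 14 cytokine, receptor and regulator genes, with 1 point for each of the 4 libraries (circles, 0 h; squares, 6 h). *Il6* lies at 0 in every library, both 6 h squares of *Il1r1* (63.7 and 65.0) and *Nfkbia* (50.8 and 76.6) lie above both circles, and those of *Socs2* (12.5 and 8.98) lie below them.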

How the data were processed

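Liver RNA was sequenced from 4 rats, 1 per agent and time, and each library was placed in its group by its title. Per the labels, libraries were made from total RNA with a stranded kit. The submitters' processing notes name HISAT2, SAMtools, StringTie and the build rn6. The sources used here do not give versions, the annotation or the strand setting of the counting. The deposited TPM was handled as a score, because loci assembled from the reads already reach the full total and rows of named genes come on top, at 0.766 to 0.789 of that total. The deposited FPKM was an alternative scale, and the deposited coverage, the mean depth per base, gave the aligned bases. Read counts were not used, and neither intervals of counting error nor limits for values of 0 could be computed.

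Rows of one symbol were summed, leaving out those that span at most 200 bp. Differences were taken on log2(TPM + 1), which understates changes of low genes. With 1 library a group no p was computed within an agent. The common change was tested with limma 3.58.1 in R 4.3.3 (two-sided, with an eBayes trend and p-values adjusted after Benjamini and Hochberg), with 1 residual degree of freedom. Python 3.11.15 with pandas 2.3.3 was used for the rest, and both steps were tested on simulated data. Promoters were read from the RefSeq table of GRCr8, whose coordinates were not converted.

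The members and gene lists were chosen with earlier results of these data known. All 10 members were named, with *Il6*, *Il1b*, *Tnf*, *Il6r*, *Il6st*, *Stat3*, *Socs3*, *Cebpb*, *Cebpd*, *Nr3c1*, *Alb*, *Ttr* and *Fga*, and up to 6 called genes per further list, agent and direction. 1 gene that this rule names is not reported here. Genes most like a member were to be named for members called with an agent, and there were none. Alternatives were the ratio, the minimum TPM, the scaling, the pseudocount, the FPKM column, the control and the settings of limma.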

Additional observations from a re-analysis of the deposited data

Results flagged for a closer look

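2 members had differences of opposite sign with the agents, each from a single pair of animals, and the difference between agents was not tested. For *Orm1* the difference with desflurane minus that with sevoflurane was 0.63 on the log2(TPM + 1) scale, and the sevoflurane control was the library that stood apart. For *Lbp* it was 0.92, with the 6 h libraries on either side of alike controls.

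Assembled loci, which enter no comparison of the report, held a signal over a stretch that includes *A2m* and related genes. How much of it came from *A2m* was not determined. 1 locus in each library covered *A2m*, *LOC297568*, *Mug1* and *Mug2* on chromosome 4 together, and its TPM was 3037 in sevoflurane 0 h, 3435 in sevoflurane 6 h, 4356 in desflurane 0 h and 6169 in desflurane 6 h, above the own control with each agent. The named genes inside it summed to 1935, 2775, 3127 and 3300 in the same order, of which *A2m* took at most 1.82. In sevoflurane 6 h only, a further assembled locus on the same strand lay inside the span of *A2m*, from 154391613 to 154393207 (rn6), with a TPM of 434 and no named gene in it. The ends of the large locus also differed slightly between libraries. Its values are therefore not of one fixed feature, and whether the sevoflurane 6 h value leaves out reads of the inner locus is not stated.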

How the results depend on the processing

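The absence of calls rested on the limits set. With a ratio above 1.5, *Crp* was called higher and *Orm1* lower with sevoflurane (1 member each), *Lbp* higher with desflurane (1 member), and *Orm1* lower in the desflurane control (1 member). In the same order, 13.9%, 9.36%, 9.07% and 2.74% of genes above the minimum were called in that direction. With no minimum TPM, members called higher numbered 1 with sevoflurane, 2 with desflurane, 2 between controls and 3 between the 6 h livers, all of them *A2m*, *Lcn2* or *Lbp*, where 12.8%, 11.5%, 11.0% and 10.7% of genes with a value above 0 were called higher. With a ratio above 3 the call of *Lbp* between the 6 h livers was lost (0 members). The median with desflurane was 0.18 after a median-of-ratios scaling, which moved the median of all genes by 0.10, and 0.22 against the sevoflurane control. That scaling moved the median of all genes between controls by -0.12 and turned the sign of 3 of the 10 member differences there. Exchanging the controls turned the sign of 3 of the 10 members with sevoflurane (*Orm1*, *A2m* and *Apcs*) and of 2 with desflurane. In limma, 0 members had an adjusted p under 0.05 in the fit of the report and in 5 planned settings. Fits with a library left out, chosen after seeing the data, also had to drop the agent block and leave 1 library alone at its time, which is assumed to vary like the others. They gave 0 to 0 members, and the lowest adjusted p was 0.086, for *Orm1* without desflurane 0 h (0.086 to 0.89 over its alternatives). Of the named genes in the further lists, 1 called change was reversed, that of *Cebpd* with sevoflurane, to -0.10 against the desflurane control, and 35 other values no longer passed the rule for a call, among them *Il1rn*, *Mbl2*, *Nfkbia*, *Paqr7* and *Timp1* with sevoflurane when the controls were exchanged.

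The common fit pairs the libraries by agent alone, since the labels give no replicate numbers. Depth limited *A2m* and *Lcn2* most, with a mean coverage of at most 6.62 and 0.66. Leaving out a library was possible in the common fit alone.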
